A study of Homo sapiens with 11 samples.

Results

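The 10 genes described here encode amino acid transporters of the cell surface: SLC3A2, SLC7A5, SLC7A11, SLC43A1, SLC7A1, SLC1A5, SLC1A4, SLC38A1, SLC38A2 and SLC6A9. They are 10 of 15147 gene symbols in the deposited tables of this series, and all 10 are in both tables. They were picked by name when the difference between PHF19 shRNA and scramble libraries was already known, with SLC6A9 among the large differences. Their values in that comparison are therefore a description, without a test of single members.

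ARP1, a human myeloma cell line of IgA kappa type, was profiled by RNA-seq in 11 libraries. Empty vector libraries (n = 3) come from cells infected with a PCDH lentivirus without insert, and PHF19 overexpression libraries (n = 2) from cells infected with the same vector carrying the PHF19 open reading frame and then sorted. Scramble (n = 3) and PHF19 shRNA (n = 3) libraries are named so by their titles only. Their genotype tags repeat the overexpression wording, and the sources used here give neither the hairpin, nor its delivery, nor whether the shRNA libraries share 1 hairpin. PHF19 binds Polycomb repressive complex 2 as an accessory protein, and the series title concerns PHF19 in growth and drug resistance of myeloma. No label says that replicates were separate cultures, so the tests measure only the spread between these libraries, which may be technical.

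Cells take up amino acids through transporters that differ in substrate and in how they are driven. SLC3A2 (4F2hc, CD98) is a heavy chain that carries no substrate itself and brings light chains such as SLC7A5 (LAT1, for large neutral amino acids) and SLC7A11 (xCT, cystine in exchange for glutamate) to the membrane by a disulfide bond. Many genes of this class are known to be switched on by ATF4, which acts in the amino acid response and binds the C/EBP-ATF response element. Plasma cells and myeloma cells, which secrete or build large amounts of immunoglobulin, depend on amino acid supply, and SLC3A2 and SLC7A5 are well known surface proteins of this lineage.

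The core of that response element, TGATGNAA, was searched on both strands in RefSeq promoter windows of 300 bases (250 before to 50 after a gene's start, GRCh38.p14). Windows were matched for 9 of the 10 genes by symbol, 16 windows in all, and 5 of the 16 windows, 1 each in 5 genes, held the core. Of all 35116 windows of this length, 3.62% held it. The stretches of 30 bases around each match are shown because ATF4 is known to act on many genes of this class; every match found in the 16 windows is shown. They are written 5′ to 3′ along the gene's own strand, with the match in capitals.

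SLC1A4: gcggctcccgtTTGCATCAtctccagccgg
SLC1A5: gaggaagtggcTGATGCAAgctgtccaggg
SLC3A2: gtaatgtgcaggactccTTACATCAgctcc
SLC7A1: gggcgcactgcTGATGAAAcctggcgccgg
SLC38A1: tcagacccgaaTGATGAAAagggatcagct

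The SLC1A4 stretch is chr2:64989381-64989410 (plus strand), with the core on the opposite strand, read there as TGATGCAA, across 1 of 2 listed starts. The SLC1A5 stretch is chr19:46784893-46784922 (minus strand) and lies upstream of the third of 3 listed starts, with the first base of the core at -97. The SLC3A2 stretch is chr11:62881719-62881748 (plus strand), with the core on the opposite strand at bases 38 to 45 after 1 of 3 listed starts. The SLC7A1 stretch is chr13:29595663-29595692 (minus strand), with the core at bases 8 to 15. The SLC38A1 stretch is chr12:46266502-46266531 (minus strand), with the core across 1 of 2 listed starts, and this window could not be placed on a transcript of the annotation to check its orientation. No match was in the windows of SLC6A9, SLC7A5, SLC38A2 or SLC43A1, which says only that these letters are not in those windows. A match of letters is a description and not a binding site.

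Abundances are given per gene length and sequencing depth, in a unit that the headers leave unnamed and that is called FPKM-type here, and read depth is unknown. PHF19, the check of the labels, was 129 ± 20.3 (SD, n = 3) under scramble and 95.3 ± 17.5 (n = 3) under shRNA, without overlap (a difference of -0.44 in mean log2(value + 1), limma adjusted p = 0.147, and 0.0445 with the replicate number as a block). The difference was -0.28 without shRNA replicate 1 (limma adjusted p = 0.252), and -0.32 without scramble replicate 2 (0.401). It was 115 ± 4.12 (n = 3) in empty vector and 220 ± 9.63 (n = 2) in overexpression libraries (limma adjusted p = 0.0438, 0.0532 to 0.318 under 10 of the 12 alternatives). All 8 listed plasma cell markers were in both tables, and CD3D and CD2, 2 of the 3 listed T cell markers, were in neither. CD3E, the other T cell marker, was in the knockdown table only, at 0.96 or less. The plasma cell markers summed to 1240 to 1370 in scramble libraries, 711 in shRNA replicate 1 and 1203 and 1210 in the other shRNA libraries. The 2 listed epithelial markers summed to 9.82 to 14.6 in scramble and 5.61 to 7.19 in shRNA libraries, and the part of either in the results was not tested. T cell, myeloid and fibroblast markers each summed to at most 2.69 as a list in every knockdown library. B cell markers summed to 1.76 to 2.66 in scramble and 1.67 to 2.81 in shRNA libraries. In the overexpression comparison LYZ, the 1 myeloid marker listed, was at 0 to 0.0572 in empty vector and at 0.396 and 6.17 in overexpression libraries, and its part in the results was not tested. Each library of the knockdown comparison lists 676 to 950 genes at 0, and each of the overexpression comparison 762 to 961. None of the 10 transporters is at 0 in any library of either table. The mean correlation of a library with the others of its group was 0.984 to 0.992 in the knockdown comparison. It was lower, 0.785 to 0.838, in the overexpression comparison. These are bulk samples, in which fewer cells of a type and less RNA per cell cannot be told apart.

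In control cells the 10 transporters spanned a wide range of abundance per gene length. SLC1A5 (ASCT2), the glutamine carrier, was the most abundant in scramble libraries at 354 ± 57.4 (SD, n = 3), followed by SLC3A2 at 183 ± 10.98 and SLC7A5 at 165 ± 19.5. SLC38A1, SLC1A4, SLC38A2, SLC7A1 and SLC43A1 lay between 54.0 ± 8.20 and 26.65 ± 1.13. SLC6A9 (4.41 ± 1.11) and SLC7A11 (3.01 ± 1.15) were the least abundant. The mean of SLC1A5 was 117 times that of SLC7A11. SLC3A2 and SLC7A5 overlapped between libraries, as did each neighbour among the 5 middle genes, and SLC6A9 with SLC7A11. The gaps from SLC1A5 to SLC3A2, from SLC7A5 to SLC38A1 and from SLC43A1 to SLC6A9 were larger than the spread. SLC1A5 stood at the 98.6th percentile of genes in the table and SLC7A11 at the 36.3rd percentile.

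The same order of the top 4 and bottom 2 held in empty vector libraries, in a table normalised separately, where SLC1A5 was 180 ± 27.6 (n = 3), SLC3A2 136 ± 44.5, SLC7A5 96.7 ± 23.9 and SLC38A1 63.4 ± 6.83. SLC38A2 (42.9 ± 2.31) stood above SLC7A1 (27.4 ± 3.28), SLC1A4 (26.1 ± 3.30) and SLC43A1 (26.0 ± 8.15) there. SLC6A9 was 5.17 ± 1.95 and SLC7A11 4.12 ± 1.39. In this table SLC1A5 overlapped SLC3A2, and SLC3A2 overlapped SLC7A5, so the order within each of these pairs lies within the spread. SLC1A5 (151 to 205) and SLC7A5 (72.8 to 121) did not overlap.

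All 10 transporters had higher means in PHF19 shRNA than in scramble libraries, by 1.23 times for SLC38A1 to 5.51 times for SLC6A9. The median difference of mean log2(value + 1), shRNA minus scramble, was 0.78 over the 10 genes and 0.03 over all 10900 genes tested. In limma with Benjamini-Hochberg adjustment over all genes, 6 of the 10 were higher past the threshold of 0.05 and 0 lower, where 4.24% of all genes tested were higher past it and 1.28% lower. With the replicate number as a block 9 of 10 passed, against 8.2% of all genes. Because this contrast was known when the genes were named, nothing is read from these counts, and no gene of the 10 is called from them. As a description of the fit only, the count was 1 without scramble replicate 2, 3 without scramble replicate 1 or shRNA replicate 3, and 9 without shRNA replicate 1.

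**Figure D1:**
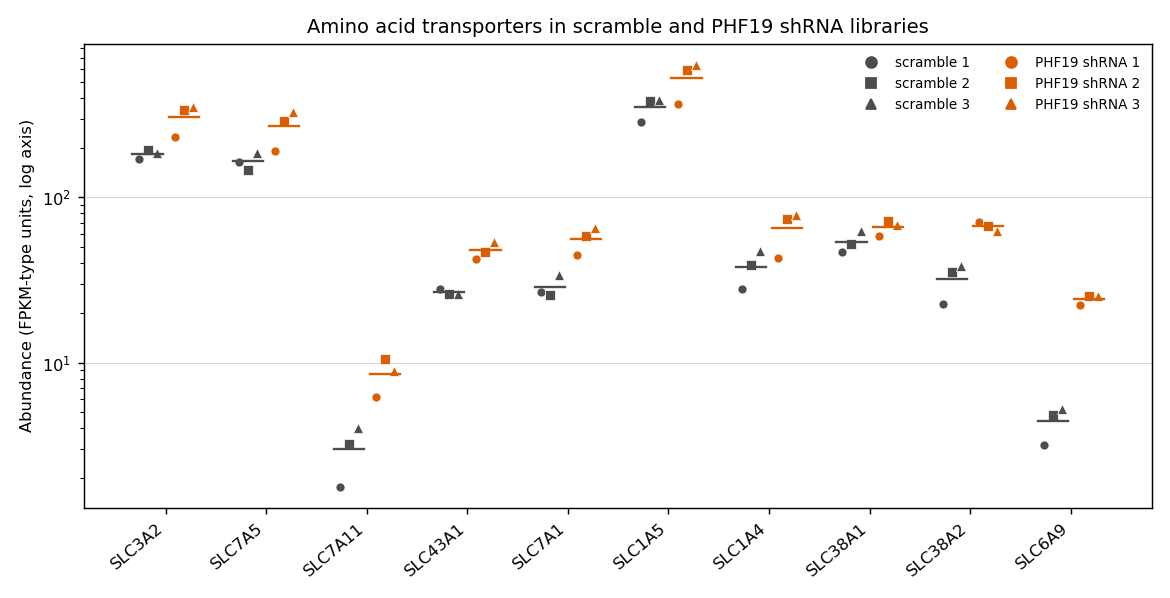
Abundance (FPKM-type units, log axis) of the 10 transporters in each scramble (grey) and PHF19 shRNA (orange) library, with marker shape for the replicate number and a line at the group mean (n = 3 each). The shRNA libraries lie above all scramble libraries for 7 genes, while shRNA replicate 1 falls within the scramble range for SLC1A5, SLC1A4 and SLC38A1.

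The heavy chain SLC3A2 was at 171, 193 and 186 in scramble replicates 1, 2 and 3, against 231, 336 and 352 in shRNA replicates 1, 2 and 3, the order used throughout. The groups did not overlap, and shRNA replicate 1 was the lowest of its group. The difference of mean log2(value + 1) was 0.71 (SE 0.17). SLC7A5, its partner for leucine and other large neutral amino acids, was at 163, 146 and 185 among scramble libraries, against 192, 288 and 327 among shRNA libraries. Here shRNA replicate 1 lay just above the highest scramble library, and the difference was 0.67 (SE 0.19). SLC7A11, the cystine carrier, was at 1.77, 3.23 and 4.03 among scramble libraries, against 6.20, 10.4 and 8.93 among shRNA libraries. All shRNA values were above all scramble values, with a difference of 1.26 (SE 0.24), the second largest of the 10.

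SLC43A1 (LAT3), a carrier of large neutral amino acids that needs no heavy chain, was at 27.95, 26.1 and 25.9 among scramble libraries, against 42.5, 47.0 and 53.5 among shRNA libraries. Its scramble libraries had the smallest relative spread of the 10 genes, with an SD of 4.24% of the mean, and the difference was 0.81 (SE 0.12). SLC7A1 (CAT1), the carrier of arginine and lysine, was at 26.7, 25.7 and 34.0 among scramble libraries, against 44.9, 58.4 and 65.3 among shRNA libraries. The groups were apart, with a difference of 0.93 (SE 0.16).

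The exchangers of the SLC1 family were less clearly apart. SLC1A5 was at 287, 384 and 389 among scramble libraries, against 369, 588 and 632 among shRNA libraries (difference 0.56, SE 0.21). SLC1A4 (ASCT1), which exchanges alanine, serine, cysteine and threonine, was at 27.95, 38.7 and 47.5 among scramble libraries, against 43.0, 74.3 and 78.0 among shRNA libraries (0.74, SE 0.25). In both genes shRNA replicate 1 lay below at least 1 scramble library and the other shRNA libraries above all of them.

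SLC38A1 (SNAT1) and SLC38A2 (SNAT2) are sodium-coupled carriers of small neutral amino acids, and SLC38A2 is the one classically induced when amino acids are scarce. SLC38A1 was at 46.8, 52.2 and 62.9 among scramble libraries, against 58.4, 72.4 and 67.9 among shRNA libraries, overlapping groups with the smallest difference of the 10 (0.30, SE 0.14). SLC38A2 was at 22.6, 35.1 and 38.25 among scramble libraries, against 70.9, 67.4 and 62.2 among shRNA libraries (1.07, SE 0.18). It was the 1 gene of the 10 in which shRNA replicate 1 was above both other shRNA libraries.

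SLC6A9 (GLYT1), the sodium- and chloride-coupled glycine carrier, was at 3.15, 4.84 and 5.25 among scramble libraries, against 22.3, 25.3 and 25.3 among shRNA libraries. The lowest shRNA value was above the highest scramble value by a wide margin, and the shRNA libraries differed by an SD of 7.28% of their mean. The difference of mean log2(value + 1) was 2.24 (SE 0.17). By group mean SLC6A9 stood at the 42.3rd percentile of genes in the table in scramble and at the 75.7th in shRNA libraries.

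Among the 10 genes, shRNA libraries were above all scramble libraries for 7 and below all for 0, where 18.9% of all genes tested were above and 13.0% below. Libraries with equal replicate numbers were compared as pairs, since their deviations from group means correlated, though no label states a pairing. The shRNA library was higher in all 3 such pairs for each of the 10 genes, as for 31.2% of all genes. For the 7 genes without overlap this was bound to hold under any pairing, and nothing is read from the count. The pair differences of log2(value + 1) had medians over the 10 genes of 0.59, 0.92 and 0.865 for pairs 1, 2 and 3. Scramble replicate 1 was below the mean of the other scramble libraries for 9 of the 10 genes, and SLC43A1 was the exception. In the same way shRNA replicate 1 was below the mean of the other shRNA libraries for 9, with SLC38A2 the exception. Without shRNA replicate 1 the differences ran from 0.38 for SLC38A1 to 2.30 for SLC6A9.

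Summed over the 10 genes, abundance was 779, 909 and 979 in scramble and 1079, 1568 and 1672 in shRNA libraries. As a share of all abundance listed in the library, the sum was 0.149%, 0.173% and 0.208% in scramble and 0.206%, 0.305% and 0.334% in shRNA libraries. The share in shRNA replicate 1 thus lay within the scramble range, while the other shRNA libraries lay above it. SLC1A5, SLC3A2 and SLC7A5 supply most of these sums, so SLC6A9 and SLC7A11 hardly enter them.

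Ratios within a library compare partners without any scaling between libraries. SLC7A5 to SLC3A2, light chain to heavy chain, was 0.951, 0.760 and 0.993 in scramble and 0.832, 0.857 and 0.928 in shRNA libraries, so the partners differed by similar factors. SLC7A11 to SLC3A2 was 0.0103, 0.0168 and 0.0216 in scramble and 0.0269, 0.0311 and 0.0254 in shRNA libraries, higher in every shRNA library. SLC38A2 to SLC38A1 was 0.482, 0.673 and 0.608 in scramble and 1.21, 0.931 and 0.917 in shRNA libraries. SLC38A1 was thus the more abundant carrier in all scramble libraries and SLC38A2 was at or near the same level in shRNA libraries. SLC1A5 to SLC1A4 was 9.47 ± 1.11 in scramble and 8.20 ± 0.342 in shRNA libraries (SD, n = 3 each), with overlapping groups.

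**Figure D2:**
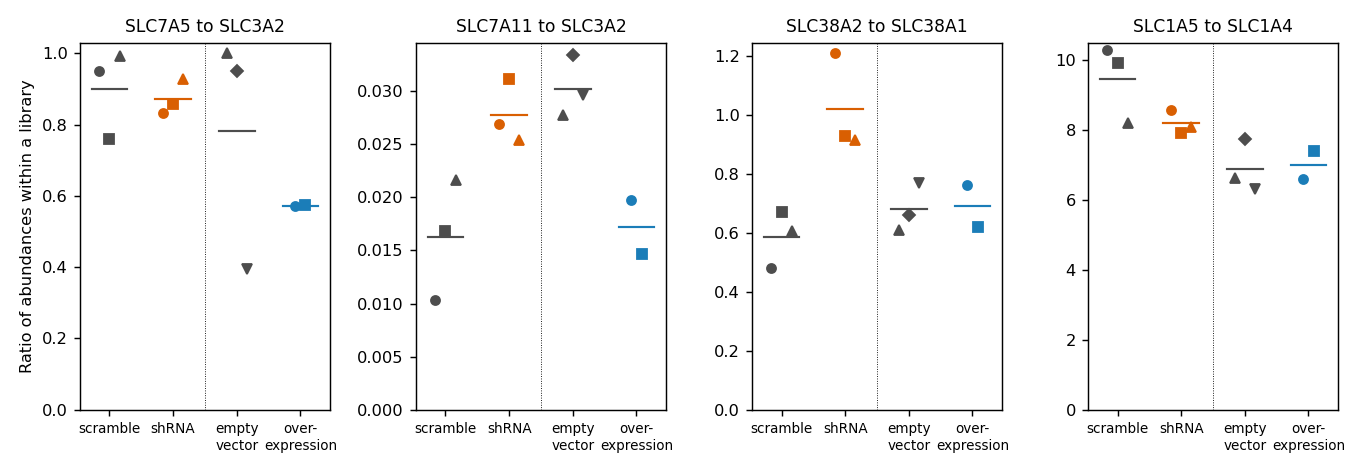
Ratio of abundances within each library (linear axes from 0) for 4 pairs of transporters, with points for libraries, lines at group means and a dotted line between the 2 tables, which were normalised separately. SLC38A2 to SLC38A1 and SLC7A11 to SLC3A2 are higher in all shRNA than in all scramble libraries, and empty vector replicate 5 is the low point at 0.395 for SLC7A5 to SLC3A2.

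Other amino acid transporters, a list of 53 genes, were examined in the same fit. The knockdown table lists 35 of the 53, and 23 passed the filter on low values. By limma 1 was higher and 1 lower past the threshold, and 21 did not pass, against 4.24% and 1.28% of all genes. The median difference was -0.13, with 8 positive and 15 negative values, beside the 0.03 over all genes. SLC38A5 (SNAT5), a carrier of glutamine, serine and glycine, fell from 203 ± 12.1 to 120 ± 32.0 (SD, n = 3 each), a difference of -0.79 (SE 0.19, limma adjusted p = 0.0433, 0.0330 with the replicate block). Its libraries were at 216, 200 and 193 among scramble libraries, against 83.4, 140 and 137 among shRNA libraries, with shRNA replicate 1 the lowest. SLC38A10, a further SLC38 family member, rose from 40.9 ± 5.74 to 58.8 ± 3.598, a difference of 0.52 (SE 0.13, limma adjusted p = 0.0492, 0.0176 with the block).

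Both calls ended without any 1 of the scramble libraries (limma adjusted p 0.0974 to 0.156 for SLC38A5 and 0.0608 to 0.161 for SLC38A10) and without shRNA replicate 3 (0.0554 and 0.140), and that of SLC38A10 also without shRNA replicate 2 (0.0970). Neither passed with no filter on low values (0.0837 and 0.0796) or by limma without trend and robust variances (0.0595 and 0.0718), and SLC38A10 missed with a pseudocount of 0.1 (0.0505). SFXN1, the mitochondrial serine carrier, was 44.1 ± 2.40 in scramble and 29.95 ± 6.08 in shRNA libraries (-0.56, SE 0.16, limma adjusted p = 0.0651). It passed with the replicate block (limma adjusted p = 0.0232) and after median-of-ratios scaling (0.0431), and is named here because of that, after its values were seen. With the block 1 of the 23 was higher and 2 lower, against 8.2% and 3.68% of all genes. SLC38A5 to SLC38A2, carriers that share glutamine as a substrate, was 9.59, 5.70 and 5.04 in scramble and 1.18, 2.08 and 2.21 in shRNA libraries.

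**Figure D3:**
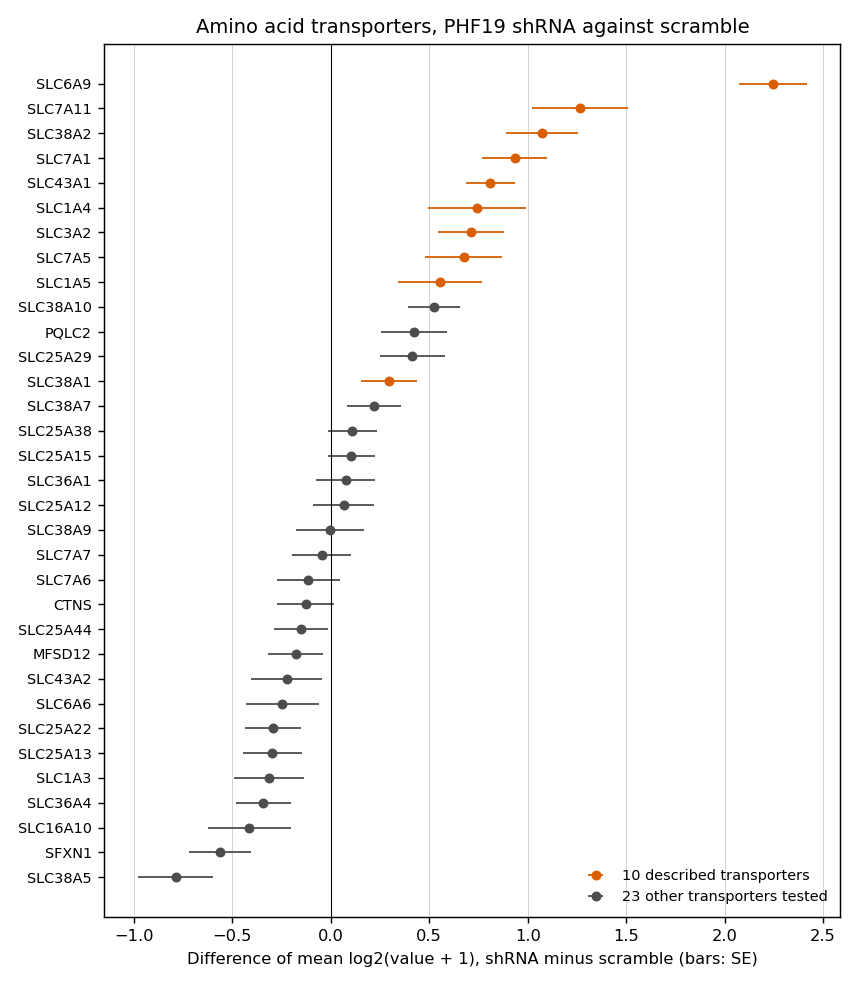
Difference of mean log2(value + 1), shRNA minus scramble, with SE, for the 10 transporters described (orange) and the 23 others tested (grey), sorted by size. The 10 lie between 0.30 and 2.24 and the others between -0.79 (SLC38A5) and 0.52 (SLC38A10). The 10 were named with this contrast known, so their separation from the others can come from that choice.

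The genes whose profile over the 6 knockdown libraries was nearest to that of SLC6A9 were found by Euclidean distance between centred log2(value + 1) profiles among 10889 other genes. They were SNTB1 (distance 0.339), MAN1C1 (0.384), PCK2 (0.558), PIP5KL1 (0.578) and GPT2 (0.590). PCK2 is the mitochondrial phosphoenolpyruvate carboxykinase (22.97 ± 9.01 in scramble, 109 ± 25.8 in shRNA libraries), and GPT2 the mitochondrial alanine aminotransferase (21.3 ± 6.30 and 78.9 ± 16.4). SNTB1, a syntrophin, was 2.21 ± 0.527 in scramble and 11.8 ± 0.872 in shRNA libraries, and MAN1C1, a Golgi mannosidase, 2.32 ± 0.602 and 11.9 ± 0.295 (SD, n = 3 each). Of the 9 other transporters SLC7A11 was the nearest at 1.26, followed by SLC38A2 at 1.46 and SLC7A1 at 1.67, and SLC38A1 was the farthest at 2.40. With 6 libraries in 2 groups, such nearness rests mostly on the size of the group difference.

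In the overexpression table none of the 10 transporters passed limma over all genes (0 of 10, against 0.914% of 10279 genes tested, 0.613% higher and 0.302% lower), and 1, SLC6A9, had an unadjusted p under 0.05. Over all genes 63 were higher and 31 lower, but 30 higher and 96 lower without overexpression replicate 1, and 29 and 76 without overexpression replicate 2. Fitted by limma without trend and robust variances, 0 of the 10 transporters passed as well, where 105 of all 10279 genes did. When every gene with a listed 0 was dropped, 0 of the 10 and 0 of all 8665 genes passed. None of the 10 is at 0 in any library, so the 0.914% is not a like background for them. In the main fit the median difference, overexpression minus empty vector, was 0.19 over the 10 genes and 0.09 over all genes, with 7 positive and 3 negative values. Overexpression libraries were above all empty vector libraries for 4 genes and below all for 0, where 23.1% and 11.1% of all genes were. All abundance listed in a library summed to 425155 to 426112 in empty vector and to 498485 and 502349 in overexpression libraries. As a share of that sum the 10 genes were 0.123%, 0.154% and 0.152% in empty vector libraries. The shares of 0.144% and 0.141% in overexpression libraries lay inside that range. The part of the unequal sums in the differences was not tested. A miss of the threshold with 2 against 3 libraries does not show that levels were alike.

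SLC6A9 was at 2.93, 6.07 and 6.52 in empty vector replicates 3, 4 and 5 and at 11.4 and 9.64 in overexpression replicates 1 and 2. Both overexpression libraries were above all empty vector libraries, with a difference of 0.95 (SE 0.35, limma adjusted p = 0.430), and the authors' deposited table gives it a p of 0.00412, the only one under 0.05 among the 10. SLC43A1 was at 19.2, 23.8 and 35.0 in empty vector and at 36.7 and 37.5 in overexpression libraries (0.54, SE 0.28, limma adjusted p = 0.536). SLC3A2 was at 96.8, 127 and 184 in empty vector and at 185 and 187 in overexpression libraries (0.50, SE 0.30, limma adjusted p = 0.573). In both genes empty vector replicate 5 was close to the overexpression libraries and replicates 3 and 4 well below.

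SLC1A5, the fourth gene with no overlap, was at 151, 205 and 185 in empty vector and at 210 and 212 in overexpression libraries (0.24, SE 0.16, limma adjusted p = 0.616). SLC7A5 was at 96.8, 121 and 72.8 against 106 and 108 (0.17, SE 0.24, limma adjusted p = 0.816), inside the range of the empty vector libraries. SLC7A11 was at 2.68, 4.23 and 5.45 against 3.65 and 2.76 (-0.26, SE 0.30, limma adjusted p = 0.770), also inside that range. SLC1A4, SLC7A1, SLC38A2 and SLC38A1 had differences of 0.20, 0.05, -0.07 and -0.10, all with overlapping groups and limma adjusted p of 0.640 to 0.912.

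**Figure D4:**
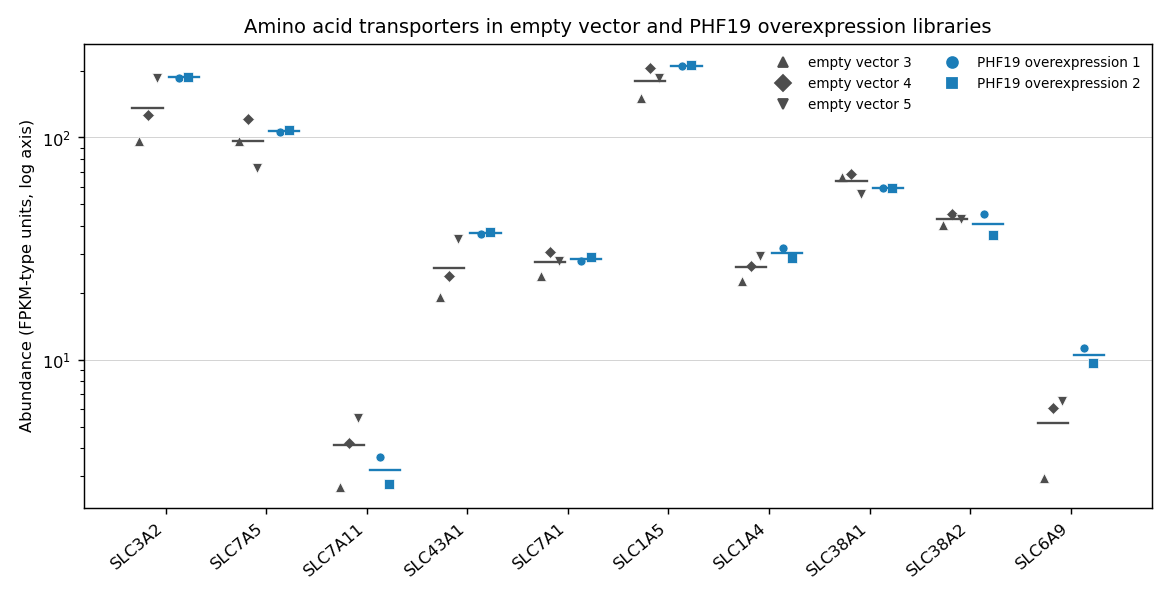
Abundance (FPKM-type units, log axis) of the 10 transporters in each empty vector (grey) and PHF19 overexpression (blue) library, with marker shape for the replicate number and a line at the group mean (n = 3 and n = 2). SLC6A9 shows the widest gap between groups, and empty vector replicate 5 is high for SLC3A2 (184) and SLC43A1 (35.0) and low for SLC7A5 (72.8).

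Empty vector replicate 5 differed from replicates 3 and 4 in the balance of chains: SLC7A5 to SLC3A2 was 0.9998 and 0.952 in replicates 3 and 4, 0.395 in replicate 5, and 0.571 and 0.575 in overexpression libraries. SLC7A11 to SLC3A2 was 0.0277, 0.0334 and 0.0296 in empty vector and 0.0197 and 0.0147 in overexpression libraries, lower in both. SLC38A2 to SLC38A1 was 0.681 ± 0.0806 (SD, n = 3) and 0.691 ± 0.103 (n = 2), with SLC38A1 the more abundant in all 5 libraries. Without empty vector replicate 5 the differences of SLC43A1 and SLC3A2 were 0.77 (limma adjusted p = 0.0819) and 0.74 (0.104), and that of SLC7A5 was -0.019. Without empty vector replicate 3 the differences of SLC43A1 and SLC3A2 were 0.35 (limma adjusted p = 0.716) and 0.28 (0.716), and that of SLC1A5 was 0.11 (0.741). The listed plasma cell markers summed to 852 and 1077 in empty vector replicates 3 and 4, where TNFRSF17 is listed at 0, to 1842 in replicate 5 and to 1691 and 1735 in overexpression libraries, and their part in these differences was not tested.

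Of the 53 other transporters, 25 were in the overexpression table and 22 were tested. By limma 0 passed, with the smallest adjusted p at 0.316 and 2 with an unadjusted p under 0.05. Their median difference was 0.03, with 12 positive and 10 negative values. SLC38A5 was at 166, 157 and 78.4 in empty vector and at 164 and 175 in overexpression libraries (0.41, SE 0.38, limma adjusted p = 0.714), with empty vector replicate 5 again apart.

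Side by side, each within its own table, SLC6A9 differed by 2.24 in the shRNA and 0.95 in the overexpression comparison, SLC7A11 by 1.26 and -0.26, SLC38A2 by 1.07 and -0.07, and SLC7A1 by 0.93 and 0.05. SLC43A1 differed by 0.81 and 0.54, SLC3A2 by 0.71 and 0.50, and SLC1A5 by 0.56 and 0.24. For SLC1A4 the differences were 0.74 and 0.20, for SLC7A5 0.67 and 0.17, and for SLC38A1 0.30 and -0.10. The comparisons share no libraries, and the difference between them was not tested because the tables were normalised separately.

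**Figure D5:**
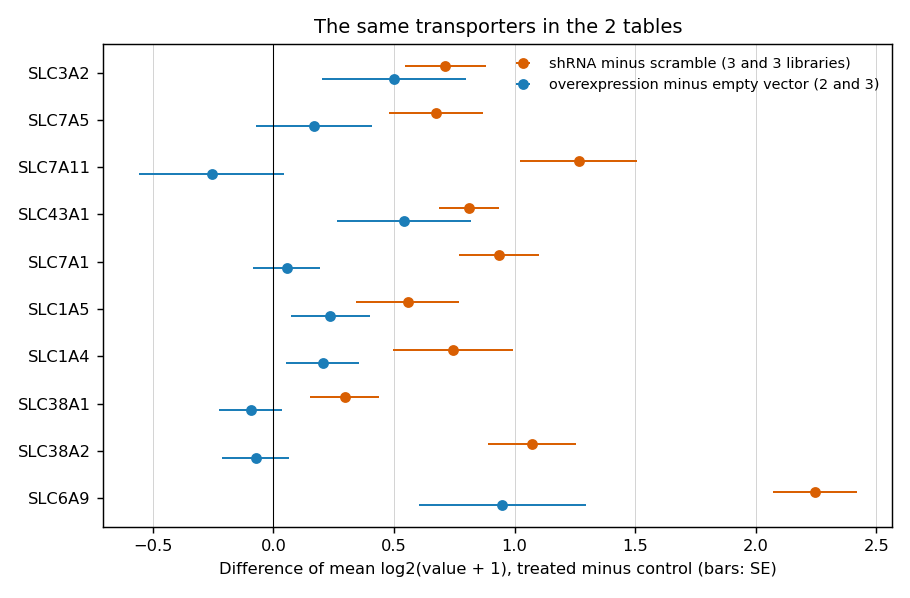
Each point is a difference of means on the log2(value + 1) scale (treated minus control, bars SE) for 1 of the 10 transporters in the shRNA comparison (orange, 3 and 3 libraries) and the overexpression comparison (blue, 2 and 3 libraries). All 10 orange points are above 0, and 3 of the blue points (SLC7A11, SLC38A1 and SLC38A2) are below it.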

How the data were processed

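The authors deposited 2 tables of per-gene abundances, recorded here as FPKM, because the headers name no unit and the values cannot separate FPKM, RPKM and TPM. Per the submitters' processing notes, TopHat was used with the hg19 build. The sources used here give neither the program that quantified them nor which genes were dropped. A p-value per gene by the authors, deposited beside the abundances, comes from an unnamed test. The tables carry no counts, so depth and counting error are unknown. Groups came from sample titles, and each comparison stayed within 1 table.

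Values were taken as log2(value + 1). Genes reaching 1 in 3 knockdown or 2 overexpression libraries, the size of the smaller group, were tested with limma 3.58.1 (R 4.3.3), with trend and robust variances, two-sided, Benjamini-Hochberg adjusted over all genes tested, at 0.05. The code was tested on simulated data. The 24 knockdown symbols that had turned into dates stayed unmatched. Python 3.11.15 (pandas 2.3.3, matplotlib 3.10.9) served for tables and plots.

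The members and lists were chosen with earlier results of these data known. Named were the 10 members, PHF19, up to 6 of the other transporters past the threshold per comparison with the smallest adjusted p, and the 5 genes nearest in profile to the member with the largest difference. Deviations of scramble and shRNA libraries with equal numbers correlated at 0.341, 0.270 and 0.273 across genes, and other pairs at -0.277 to 0.0936. The numbers were therefore taken to pair the libraries. Deviations were taken from each group's own mean, so positive values for equal numbers push those of the other pairs lower. The pairing was read from the same values to which the block was fitted. No label states this pairing.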

Additional observations from a re-analysis of the deposited data

How the results depend on the processing

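In the shRNA comparison all 10 transporters kept a positive difference under each of the 13 alternatives, none moving by more than 1 SD of its replicates. A changed filter, limma without trend and robust variances, and the replicate block could not move a difference, because they leave the group means as they are. For the 7 genes without overlap, leaving out a single library could not reverse the sign. The genes were named with this contrast known, so nothing is read from the kept signs. The count of the 10 past the threshold was 1 to 9 with single libraries left out. For all genes it was 601 (462 higher, 139 lower), 269 with no filter, 65 to 636 with single libraries left out, and 1295 with the replicate block, which took PHF19 (-0.44) past the threshold. Of calls, 76.9% were higher, against 64.7% after quantile normalisation. In the main limma fit 6 of the 23 other transporters had an unadjusted p under 0.05, and 2 were called. The 2 calls became 1 with a pseudocount of 0.1, and 0 with no filter and by limma without trend and robust variances. With single libraries left out they became 0 to 2. Among the other transporters the block changed the call of SFXN1 alone.

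In the overexpression comparison 94 genes passed (63 higher, 31 lower), and 61 with a pseudocount of 0.1 (33 higher, 28 lower), 36 with a filter at 5 (17 higher, 19 lower), 103 to 336 with single libraries left out, and 0 by limma when every gene with a listed 0 was dropped (1201 with an unadjusted p under 0.05). Where 1 overexpression library was left, its spread was assumed to be that of the other group. Of the other transporters 0 to 1 passed with single libraries left out, the 1 being SLC36A4 without empty vector replicate 5. PHF19 did not pass with a pseudocount of 0.1 (0.93), a filter at 5 (0.93), quantile normalisation (0.75), median-of-ratios scaling (0.85), limma without trend and robust variances (0.93), genes with a listed 0 dropped (0.93), or 4 of the 5 single libraries left out (0.88 to 0.97). Reversed signs, none past the threshold, were SLC7A5 at -0.019 without empty vector replicate 5 (to 0.34 with other single libraries left out), SLC7A1 at -0.091 after quantile normalisation, -0.019 after median-of-ratios scaling and -0.038 without empty vector replicate 3 (to 0.13), and SLC38A2 at 0.077 without overexpression replicate 2 (from -0.22). Quantile normalisation moved the median of all genes from 0.09 to -0.04. No paired fit was possible in the overexpression comparison, because its groups share no replicate number. The cause of these changes was not tested. Depth is unknown, so what it limits cannot be given.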
